A study of Mus musculus with 16 samples.

Results

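The expression of 10 genes of antioxidant defence, heme breakdown and iron storage was examined in mouse neutrophils during experimental sepsis. They were chosen by symbol from the 49315 genes of the count files, by a rule that uses no measured value, although earlier results of these data were known when the genes were chosen. They are Hmox1, for heme breakdown; Slc7a11, Gclc and Gclm, for cystine import and glutathione synthesis; Txnrd1, Srxn1, Prdx1 and Prdx5, for the thioredoxin and peroxiredoxin system; and Fth1 and Ftl1, the ferritin chains. All 10 were found in the files and had counts in all 24 libraries (at least 22, for Srxn1 in a WT blood library), and all 10 passed the filter on low counts in every comparison. RNA was sequenced from Ly6G+/CD11b+/CD45.2+ neutrophils sorted from the blood and from the lung of male WT mice and male αD KO mice, aged 8 to 12 weeks. αD is the integrin chain CD11d, encoded by Itgad, and the αD KO mice came from Jackson Laboratory. The labels name no Cre driver and no pooling of animals. The mice were either naive (0h, the baseline) or were taken 12 hours after CLP, cecal ligation and puncture, which leaks gut bacteria into the abdomen. Genotype, tissue and time make 8 groups of 3 libraries, and the labels state no treatment that the groups share beyond the sort.

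NRF2, encoded by Nfe2l2, is a transcription factor that KEAP1 holds for degradation until oxidants or electrophiles modify KEAP1. NRF2 then pairs with a small MAF protein and binds the antioxidant response element of its target genes, and BACH1, which is displaced by heme, binds the same element and represses them. The targets rebuild glutathione and thioredoxin, the thiol systems that reduce peroxides, while heme oxygenase 1 releases iron from heme and ferritin stores that iron. Neutrophils make large amounts of superoxide with NADPH oxidase, so this system is often studied in them.

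Each group had 2 samples and 3 count files. Sample 1 gave the 2 files named libraries 1a and 1b here, and sample 2 gave library 2. The counts of 1a and 1b differed in each group by far more than sampling noise (chi-square per degree of freedom 63.5 to 328.5), so each was taken as a library, but the labels do not say whether they came from separate animals, and p-values may measure technical spread only. Total counts were 5753476 to 29984954 per library. The 8 libraries 1b held counts for 29162 to 38844 genes, against 17132 to 32666 in the other 16. Levels are given as CPM, a gene's counts relative to the library total, after scaling by edgeR's TMM factors. On that scale the lowest level of a member within a group was mostly in library 1b. The TMM factors of libraries 1b were 0.888 to 1.92, against 0.557 to 1.16 in the others, and a larger factor lowers the level. A gene is named called, or a DEG, at an adjusted p below 0.05 (Benjamini-Hochberg over all genes tested) with an absolute log2 fold change above 1, and rose or fell is written of called genes alone. Itgad, the targeted gene, goes against the genotype label: its level was 2.44 to 3.16 CPM in WT blood at 0h and 50.7 to 96.4 CPM in blood labelled αD KO. It was higher under the αD KO label, without overlap, in the other 3 pairs too, at 0.0583 to 0.401 against 12.5 to 21.2 CPM in blood at 12 hours, 1.35 to 3.66 against 17.7 to 67.95 CPM in lung at 0h and 0.211 to 0.881 against 14.1 to 101.9 CPM in lung at 12 hours. The counts are per gene and not per exon, so transcripts of a targeted allele cannot be told from intact ones, and these groups are called by their label. On a scale from the mean of WT lung at 0h (0) to that of WT lung at 12 hours (1), over the 1335 other DEGs of WT lung, 3 lung libraries labelled αD KO lay against their time: library 2 at 0h was at 1.03, and libraries 1a and 2 at 12 hours were at 0.092 and 0.191. The other αD KO lung libraries were at 0.15 and 0.078 (0h) and 0.825 (12 hours). The 9 neutrophil markers summed to 29550 to 53900 CPM in WT libraries at 0h, to 79620 to 144100 CPM in WT lung at 12 hours and to 116900 to 213400 CPM in WT blood at 12 hours, so that the times did not overlap in either tissue. Nor did they in αD KO blood (35560 to 61160 against 123200 to 153400 CPM), whereas αD KO lung overlapped (43250 to 92510 against 55010 to 92080 CPM). The 9 did not move as one: in WT lung 6 were higher at 12 hours without overlap (Itgam, Ly6g, Mmp8, Retnlg, S100a8 and S100a9), while Csf3r (6871 to 11340 against 1538 to 3671 CPM) and Cxcr2 (2034 to 4518 against 1409 to 1612 CPM) were lower. In WT blood 7 were higher and Csf3r was lower (4361 to 11350 against 1019 to 2602 CPM). Markers of other cell types were lower at 12 hours, without overlap, for B cells in WT lung (26.9 to 45.6 against 5.78 to 11.1 CPM), for T and NK cells in WT lung (5.78 to 7.74 against 1.20 to 4.41 CPM), WT blood (8.05 to 11.7 against 2.06 to 5.07 CPM) and αD KO blood (4.44 to 246 against 0.984 to 2.14 CPM), and for platelets in WT blood (28.8 to 103 against 4.73 to 23.8 CPM). Lung epithelial and endothelial markers summed to 31.9 to 112 CPM in WT lung at 0h and to 36.1, 318 and 296 CPM at 12 hours (libraries 1a, 1b and 2). The 14 monocyte and macrophage markers summed to 496 to 1727 CPM. Of these, Csf1r (83.0 to 834 CPM), Ly6c2 (49.6 to 837 CPM) and Adgre1 (8.58 to 218 CPM) were found in every library, Ccr2, Ear2 and Siglecf reached 293, 140 and 112 CPM, and the rest reached at most 20.2 CPM (C1qb), with C1qb, Fabp4, Marco and Mrc1 at 0 in at least 1 library. The part of these markers in the results was not tested. In these bulk samples, a change in the share of a cell type and a change of RNA per cell cannot be told apart.

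The core of the antioxidant response element was looked for in the promoters of the members. RefSeq windows on GRCm38.p6 were given for 8 of the 10 members (11 windows), and the 250 bases before the start were searched on both strands for TGACNNNGC and for its variant TGAGNNNGC, which differ at a single letter and so cannot match at the same place and strand. Of all 32851 promoters in the table, 10.2% held the first, 14.4% the second and 23.0% either. Matches stood before 5 members, Srxn1 having a pair of them. Those shares are per window, while a member with several windows is counted once here. Txnrd1 had its match in the window at chr10:82858956-82859255 and none in its other windows. The matches are shown because these are the letters that NRF2 and BACH1 are known to read. Capitals mark the match, and each stretch is read 5′ to 3′ on the strand of its gene.
Srxn1 chr2:152105336-152105404 (plus strand, 158 bases before the start): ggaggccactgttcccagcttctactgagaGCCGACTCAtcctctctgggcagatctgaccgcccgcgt
Srxn1 chr2:152105449-152105517 (plus strand, 45 bases before the start): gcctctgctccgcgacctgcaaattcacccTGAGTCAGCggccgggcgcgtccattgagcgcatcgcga
Slc7a11 chr3:50443672-50443740 (minus strand, 97 bases before the start): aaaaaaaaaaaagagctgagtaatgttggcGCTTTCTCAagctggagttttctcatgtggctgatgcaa
Gclm chr3:122245393-122245461 (plus strand, 134 bases before the start): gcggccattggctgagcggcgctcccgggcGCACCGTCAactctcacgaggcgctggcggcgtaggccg
Prdx1 chr4:116685436-116685504 (plus strand, 133 bases before the start): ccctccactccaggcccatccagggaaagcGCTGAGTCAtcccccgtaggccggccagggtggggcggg
Txnrd1 chr10:82859084-82859152 (plus strand, 92 bases before the start): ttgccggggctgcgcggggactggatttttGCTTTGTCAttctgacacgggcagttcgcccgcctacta
The second match of Srxn1 reads forward, and the other matches read on the opposite strand. These letters did not stand in the windows of Ftl1, Prdx5 or Fth1, and Hmox1 and Gclc were not in the table. A match is a description of the window and not a measured site.

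The members differed widely in level. Compared per kb of exon length, Fth1 and Ftl1 were the highest in every group: in WT lung at 0h the mean level was 5975 ± 774 CPM per kb for Fth1 and 4557 ± 1209 for Ftl1 (SD, n = 3). Prdx5 followed with 188 ± 67.4 CPM per kb, then Hmox1 with 51.4 ± 10.3 and Slc7a11 with 32.5 ± 14.95. Txnrd1 (9.16 ± 1.92), Prdx1 (6.10 ± 2.07), Gclm (3.16 ± 0.429), Gclc (3.03 ± 0.454) and Srxn1 (1.86 ± 0.264 CPM per kb) were low at the baseline. The mean CPM of 9 members was highest in WT lung at 12 hours, and that of Prdx1 was highest in WT blood at 12 hours. Without the TMM factors, the mean of Prdx5 was highest in αD KO blood at 12 hours (1339 CPM, against 1275 CPM in WT lung at 12 hours). That of Prdx1 was then highest in αD KO blood at 0h (56.6 CPM, against 56.0 CPM in WT blood at 12 hours). When the 8 groups were put in order of their mean, neighbouring groups overlapped in their libraries for each member, except that Gclc in αD KO blood at 0h lay above WT blood at 12 hours and Prdx1 in αD KO blood at 12 hours lay above αD KO lung at 0h.

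**Figure D1:**
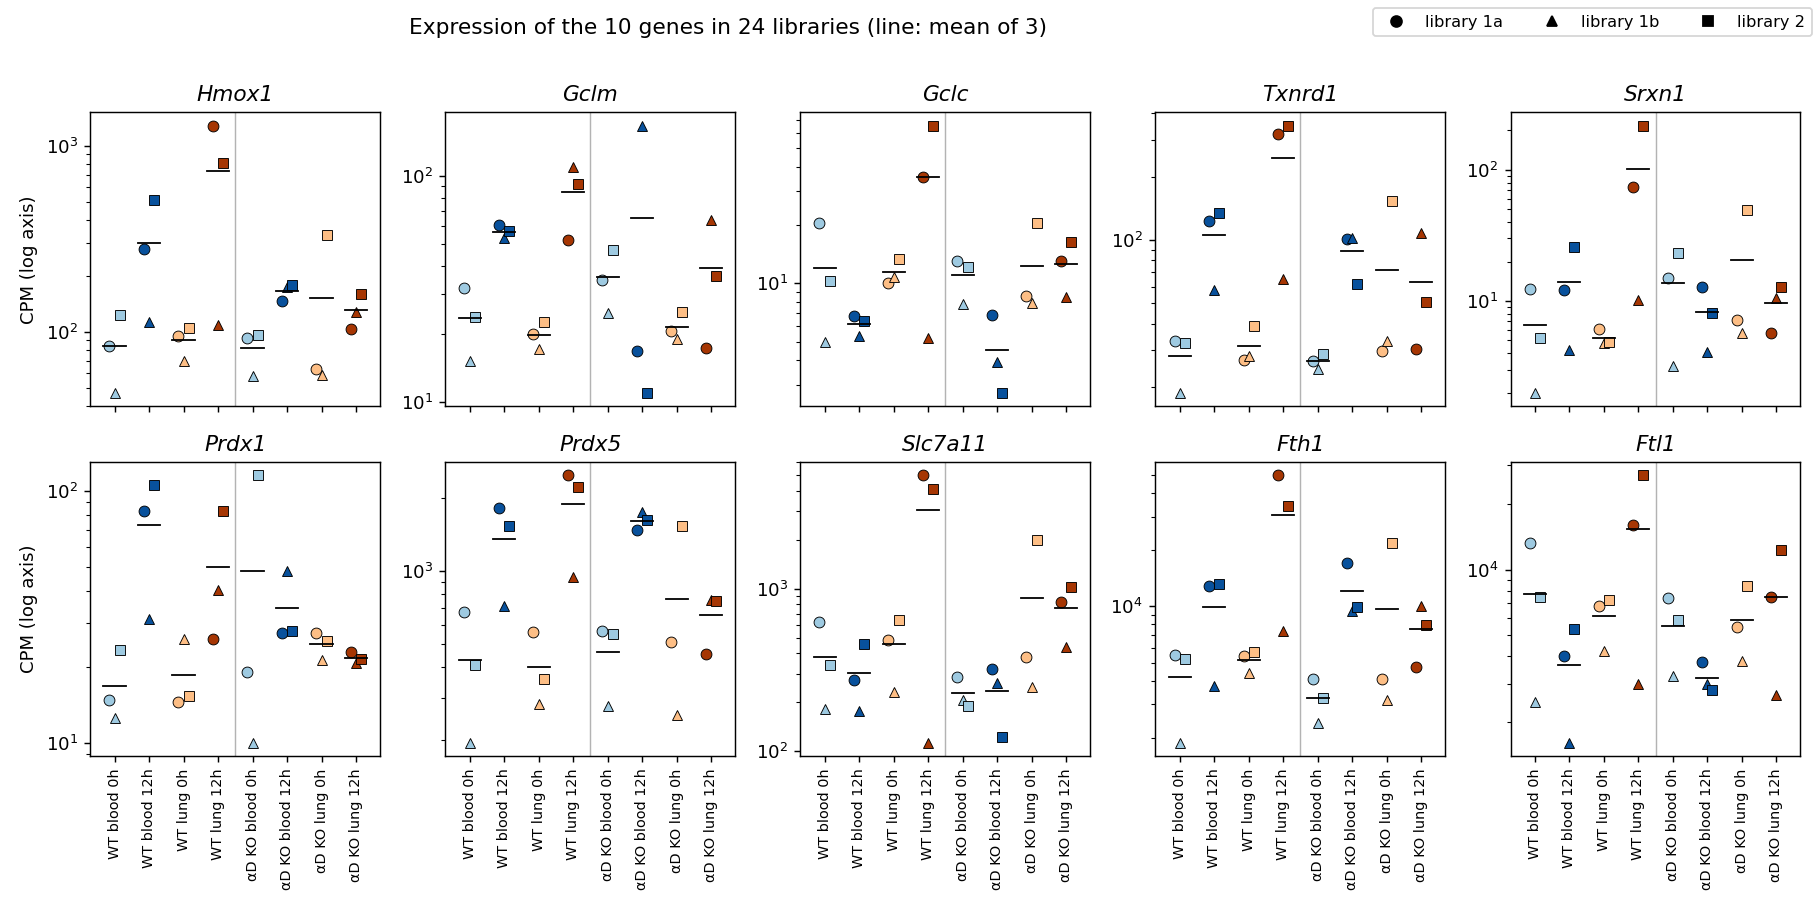
Level of the 10 genes in each of the 24 libraries, in CPM with TMM factors on a log axis, by group; the marker shape gives the library number and the short line the mean of 3. In WT lung at 12 hours, libraries 1a and 2 are high for Hmox1 (1285 and 809 CPM), Slc7a11 and Fth1, while library 1b (109.5 CPM for Hmox1) lies near the 0h libraries or, for Slc7a11, below them.

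The first question was which of these genes changed from the baseline to 12 hours after CLP. In WT lung neutrophils, 5 of the 10 rose (Srxn1, Hmox1, Txnrd1, Gclm and Prdx5) and none fell, where 9.02% of all genes tested were called by edgeR's quasi-likelihood test and 5.24% were called higher. All 10 fitted changes were above 0, with a median log2 fold change of 2.26 against 0.03 over all genes. In WT blood neutrophils, 3 of the 10 rose (Prdx1, Txnrd1 and Gclm) and none fell, where 13.5% of genes were called and 7.75% were called higher. The median of the members was 1.05 there, against -0.15 over all genes. In blood labelled αD KO, 3 of the 10 rose (Fth1, Prdx5 and Txnrd1) and none fell, where 8.75% were called and 3.75% called higher, and the median of the members was 0.30 against -0.14. In lung labelled αD KO no member was called, and 0% of genes were. DESeq2 called 8 members in WT lung (18.9% of genes), 5 in WT blood (21.4%), 4 in αD KO blood (17.6%) and none in αD KO lung (0%), where edgeR's unadjusted p was below 0.05 for 0.401% of genes and for no member.

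Library 1b of WT lung at 12 hours set the spread of that group. Without it 9 members were called in WT lung, all but Prdx1, where 25.3% of genes were called. No member was called without any other of the 6 libraries, where 5.03% of genes were called without library 1b of 0h and 0% to 0.122% without the other 4. At 12 hours, library 1b also had the highest sums of its group for 6 of the 7 marker lists, all but platelets: neutrophil (144100 CPM against 79620 and 91090), monocyte and macrophage (915 against 635 and 566), erythroid (1282 against 185 and 715), lung epithelial and endothelial (318 against 36.1 and 296), B cell (11.1 against 5.78 and 6.04) and T and NK cell markers (4.41 against 1.20 and 1.51). Their part in its levels was not tested. In WT blood, where libraries of the same number deviated together, the library number as a block gave 5 members (18.4% of genes), Hmox1 and Prdx5 being added. No member was called in WT blood without library 1a or 2 of either time, where 0.00999% to 0.811% of genes were called, nor in αD KO blood without library 1a or 2 of either time, where 0.456% to 3.51% were.

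**Figure D2:**
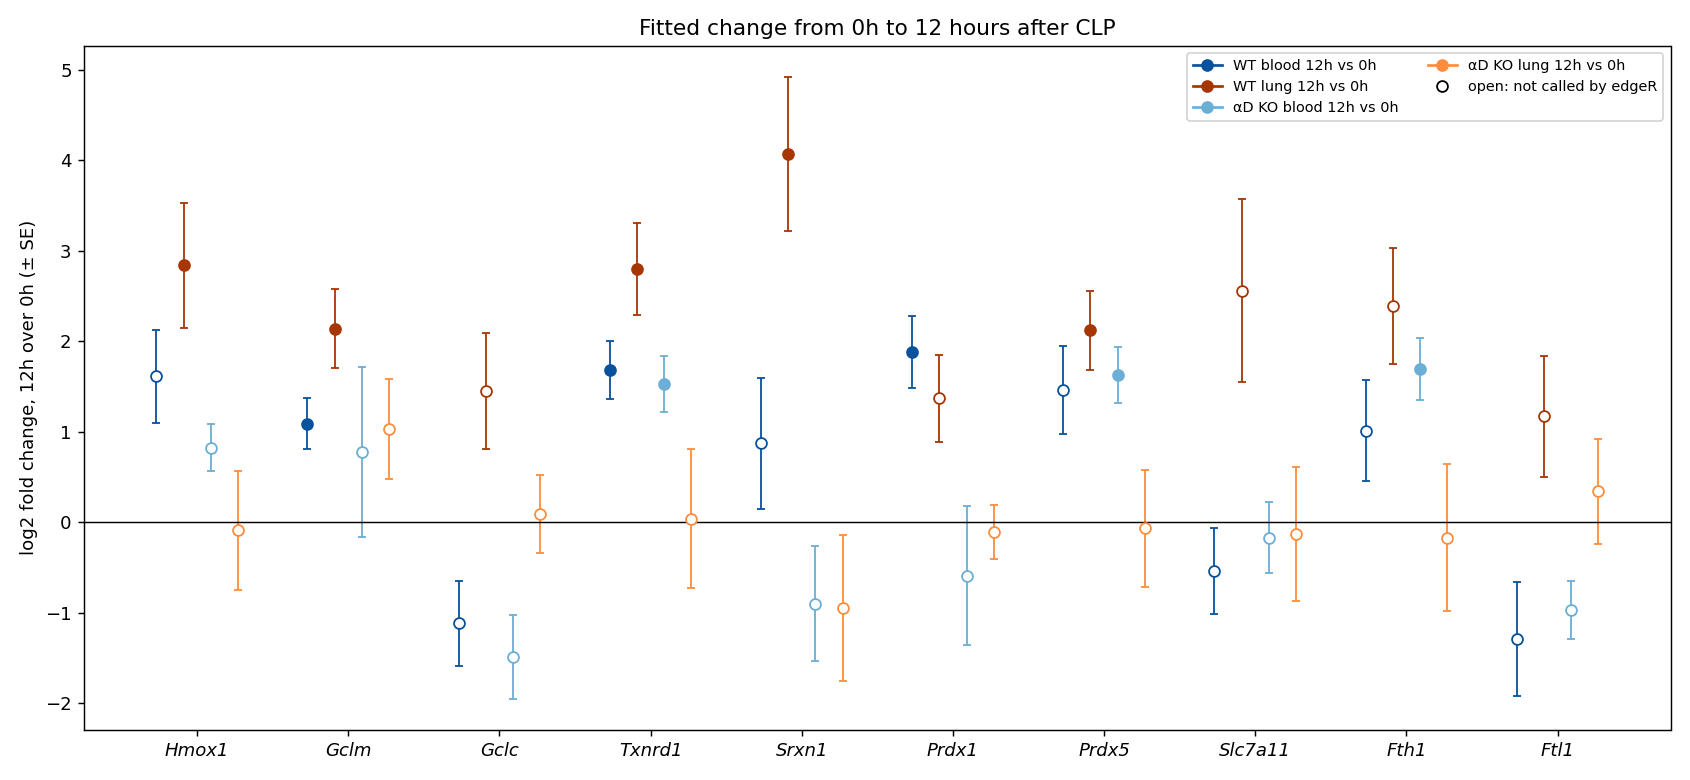
Fitted log2 fold change of each gene from 0h to 12 hours in 4 pairs of groups (edgeR, points with ± SE derived from the F statistic). Filled points passed an adjusted p of 0.05 and an absolute log2 fold change of 1. WT lung lies above 0 for all 10 genes and is largest for Srxn1 (4.07 ± 0.85), while Ftl1, Gclc and Slc7a11 lie below 0 in both blood comparisons.

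Positions are those in the files, on GRCm38. Hmox1 (ENSMUSG00000005413, chr8:75093621-75100589, plus strand) encodes heme oxygenase 1, which opens heme to biliverdin, carbon monoxide and iron. In WT lung its level was 95.2 CPM (library 1a), 69.9 CPM (library 1b) and 105 CPM (library 2) at 0h, and 1285, 109.5 and 809 CPM at 12 hours. All 3 of the 12-hour libraries lay above the baseline, library 1b only just. Hmox1 rose with a log2 fold change of 2.84 ± 0.69 (SE derived from the F statistic, adjusted p = 0.0409). In WT blood it was 83.8, 46.9 and 123 CPM at 0h and 278, 113 and 514 CPM at 12 hours, with ranges that overlapped. The fitted change was 1.61 ± 0.51 (adjusted p = 0.0773), and 1.49 ± 0.30 with the block (adjusted p = 0.0143). In blood labelled αD KO the groups did not overlap, at 57.9 to 96.1 CPM and 147 to 179 CPM, but the fitted change was 0.82 ± 0.26 (adjusted p = 0.0832), under the limit of 1.

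Slc7a11 (ENSMUSG00000027737, chr3:49892526-50443614, minus strand) encodes xCT, which brings cystine into the cell in exchange for glutamate and so feeds glutathione synthesis. WT lung had 482, 232 and 645 CPM of it at 0h and 4981, 113 and 4105 CPM at 12 hours. Libraries 1a and 2 at 12 hours lay far above every baseline library, and library 1b lay below all of them. The fitted change of 2.56 ± 1.01 had an adjusted p of 0.151, and without library 1b it was 3.03 ± 0.39 with an adjusted p of 0.00177. In WT blood, 624, 181 and 340 CPM at 0h stood against 272, 177 and 454 CPM at 12 hours, which overlapped fully. The fitted changes in blood were -0.54 ± 0.47 in WT and -0.17 ± 0.39 in αD KO, neither of them called (adjusted p = 0.492 and 0.814).

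Gclm and Gclc encode the modifier and the catalytic subunit of glutamate-cysteine ligase, the first and limiting enzyme of glutathione synthesis. Gclm (ENSMUSG00000028124, chr3:122245557-122270732, plus strand) was at 19.9, 17.2 and 22.6 CPM in WT lung at 0h and at 52.0, 109 and 92.2 CPM at 12 hours. In WT blood it was at 31.8, 15.2 and 23.7 CPM at 0h and at 60.3, 52.8 and 56.7 CPM at 12 hours. The groups did not overlap in either tissue, and Gclm rose in both, with a log2 fold change of 2.14 ± 0.44 in lung (adjusted p = 0.0259) and 1.09 ± 0.28 in blood (adjusted p = 0.0399). Gclm was the member for which library 1b of WT lung at 12 hours was the highest and not the lowest of its group, and Prdx1 in that library lay between the other pair. In blood labelled αD KO at 12 hours, Gclm was at 16.9, 166 and 10.99 CPM, a single high library with the other pair below the whole baseline range of 24.9 to 47.1 CPM; the fitted change was 0.78 ± 0.94 (adjusted p = 0.625), and DESeq2 gave it no adjusted p. Erythroid markers summed to 5889 CPM in that high library (1b), against 27.5 and 519 CPM in the other pair, and their part in its Gclm level was not tested. Without it the change was -1.56 ± 0.35 (adjusted p = 0.0420).

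Gclc (ENSMUSG00000032350, chr9:77754535-77794485, plus strand) was not called by edgeR in WT lung, WT blood or αD KO blood. In WT lung it was at 10.1, 10.8 and 13.4 CPM at 0h and at 35.4, 5.21 and 65.4 CPM at 12 hours, with libraries 1a and 2 high and library 1b below the baseline. The fitted change was 1.45 ± 0.64 (adjusted p = 0.195). In WT blood it was at 20.6, 4.97 and 10.3 CPM at 0h and at 6.82, 5.37 and 6.40 CPM at 12 hours, and the fitted change was -1.12 ± 0.47 (adjusted p = 0.167). In αD KO blood it was at 13.1, 7.82 and 12.1 CPM at 0h and at 6.85, 3.94 and 2.71 CPM at 12 hours, groups that did not overlap. That change of -1.49 ± 0.46 was not called by edgeR (adjusted p = 0.0798) and was called by DESeq2 (-1.44, adjusted p = 0.0265).

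Txnrd1 (ENSMUSG00000020250, chr10:82859206-82897724, plus strand) encodes the cytosolic thioredoxin reductase, which uses NADPH to reduce thioredoxin. It was the member called in WT lung, WT blood and αD KO blood alike. Its level in WT lung was 27.0, 28.1 and 38.8 CPM at 0h and 317, 65.3 and 349 CPM at 12 hours. In WT blood it was at 32.9, 18.7 and 32.5 CPM at 0h and at 123, 57.7 and 134.5 CPM at 12 hours. Blood labelled αD KO had 26.5, 24.2 and 28.7 CPM at 0h and 101, 102 and 61.7 CPM at 12 hours. The 12-hour libraries lay above the baseline ones in each of the 3 sets, without overlap. Txnrd1 rose by a log2 fold change of 2.80 ± 0.51 in WT lung (adjusted p = 0.0192), 1.68 ± 0.32 in WT blood (0.0162) and 1.53 ± 0.31 in αD KO blood (0.0270, all adjusted p).

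Srxn1 (ENSMUSG00000032802, chr2:152105516-152111376, plus strand) encodes sulfiredoxin, which returns overoxidised peroxiredoxins to their working form, and its promoter stretches are among those printed above. It is also among the genes that the study printed for the genotype comparison in lung at 12 hours, so these libraries were used to choose it there. WT lung had 6.11, 4.80 and 4.86 CPM of it at 0h and 74.3, 10.3 and 218 CPM at 12 hours. The groups did not overlap, although the 12-hour libraries spread widely, and Srxn1 rose by 4.07 ± 0.85 on the log2 scale (adjusted p = 0.0274), the largest fitted change of the 10 in WT lung. In blood the libraries overlapped, and the fitted change was 0.87 ± 0.72 in WT (adjusted p = 0.467) and -0.90 ± 0.64 in αD KO (adjusted p = 0.403).

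The peroxiredoxins reduce hydrogen peroxide with electrons from thioredoxin. Prdx5 (ENSMUSG00000024953, chr19:6906697-6910106, minus strand), found in mitochondria, peroxisomes and cytosol, was at 562.5, 284 and 358 CPM in WT lung at 0h and at 2478, 940.2 and 2217 CPM at 12 hours. In αD KO blood it was at 564, 276 and 549.8 CPM at 0h and at 1471, 1744 and 1619 CPM at 12 hours. Neither pair of groups overlapped, and Prdx5 rose by 2.12 ± 0.44 in WT lung (adjusted p = 0.0269) and by 1.63 ± 0.31 in αD KO blood (adjusted p = 0.0200). In WT blood it was at 196 to 678 CPM at 0h and at 718 to 1816 CPM at 12 hours, also without overlap, and the fitted change of 1.46 ± 0.49 had an adjusted p of 0.0902 (1.53 ± 0.33 and 0.0170 with the block).

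Prdx1 (ENSMUSG00000028691, chr4:116685544-116700822, plus strand), the abundant cytosolic form in many cells, was at 14.8, 12.5 and 23.3 CPM in WT blood at 0h and at 83.5, 30.9 and 106 CPM at 12 hours. These groups did not overlap, and Prdx1 rose by 1.88 ± 0.40 (adjusted p = 0.0231). In WT lung it was at 14.6, 25.8 and 15.3 CPM at 0h and at 25.9, 40.5 and 83.1 CPM at 12 hours, again above the baseline, library 1a only just, with a fitted change of 1.37 ± 0.48 (adjusted p = 0.112). In αD KO blood library 2 at 0h stood alone at 115 CPM, against 19.1 and 10.01 CPM in the other pair, and the fitted change was -0.59 ± 0.77 (adjusted p = 0.654). That library also had the highest sums of the 24 for 5 marker lists, those of B cells (383 CPM), T and NK cells (246 CPM), monocytes and macrophages (1727 CPM), erythroid cells (9114 CPM) and platelets (444 CPM), and their part in its Prdx1 level was not tested.

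Ferritin is a shell of heavy chains, which oxidise iron for storage, and light chains, which help to lay it down as mineral. Fth1 (ENSMUSG00000024661, chr19:9982703-9985092, plus strand), the heavy chain, was at 5432, 4414 and 5677 CPM in WT lung at 0h and at 49880, 7348 and 34180 CPM at 12 hours. Blood labelled αD KO had 4119, 2390 and 3247 CPM at 0h and 17030, 9412 and 9931 CPM at 12 hours. Neither pair of groups overlapped. Fth1 rose in αD KO blood by 1.69 ± 0.34 (adjusted p = 0.0258), while the change of 2.39 ± 0.64 in WT lung had an adjusted p of 0.0547 in edgeR and 0.000119 in DESeq2. In WT blood, 5486, 1879 and 5239 CPM stood against 12770, 3741 and 13090 CPM, higher at 12 hours within each library number, with groups that overlapped because library 1b was low at both times. The fitted change was 1.01 ± 0.56 (adjusted p = 0.280), and 0.97 ± 0.36 with the block (adjusted p = 0.0996).

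Ftl1 (ENSMUSG00000050708, chr7:45457944-45459884, minus strand), the light chain, did not follow Fth1 in blood. In WT blood it was at 13280, 2464 and 7463 CPM at 0h and at 3998, 1608 and 5346 CPM at 12 hours, and in αD KO blood at 7388, 3257 and 5874 CPM at 0h and at 3761, 2983 and 2802 CPM at 12 hours. Both pairs overlapped, and the fitted changes were -1.29 ± 0.63 (adjusted p = 0.228) and -0.97 ± 0.32 (adjusted p = 0.0968). In WT lung it was at 6828, 4251 and 7242 CPM at 0h and at 16060, 2988 and 27060 CPM at 12 hours, with library 1b below the baseline and a fitted change of 1.17 ± 0.67 (adjusted p = 0.314).

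The ratio of Fth1 to Ftl1 within a library, per kb, needs no scaling between libraries; it was looked at after the values were seen. It was 0.639, 1.18 and 1.09 in WT blood at 0h and 4.94, 3.60 and 3.79 at 12 hours. Blood labelled αD KO had 0.863, 1.14 and 0.855 at 0h and 7.01, 4.88 and 5.48 at 12 hours. The ratio in WT lung was 1.23, 1.61 and 1.21 at 0h and 4.81, 3.81 and 1.95 at 12 hours. All 12-hour libraries of the 3 sets, libraries 1b included, lay above their baseline, by 4.35-fold, 6.07-fold and 2.46-fold of the geometric means (exact permutation test, two-sided, p = 0.1 each, the smallest that 3 against 3 can give). In lung labelled αD KO the ratio was 1.17, 1.30 and 3.99 at 0h and 0.979, 5.83 and 0.995 at 12 hours, so the 3 libraries that lay against their time label also did so here. Ferritin transcripts together were 1.19% to 1.32% of all counts in WT lung at 0h and 3.68%, 1.21% and 3.70% at 12 hours, groups that overlapped through library 1b (exact permutation p = 0.3).

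**Figure D3:**
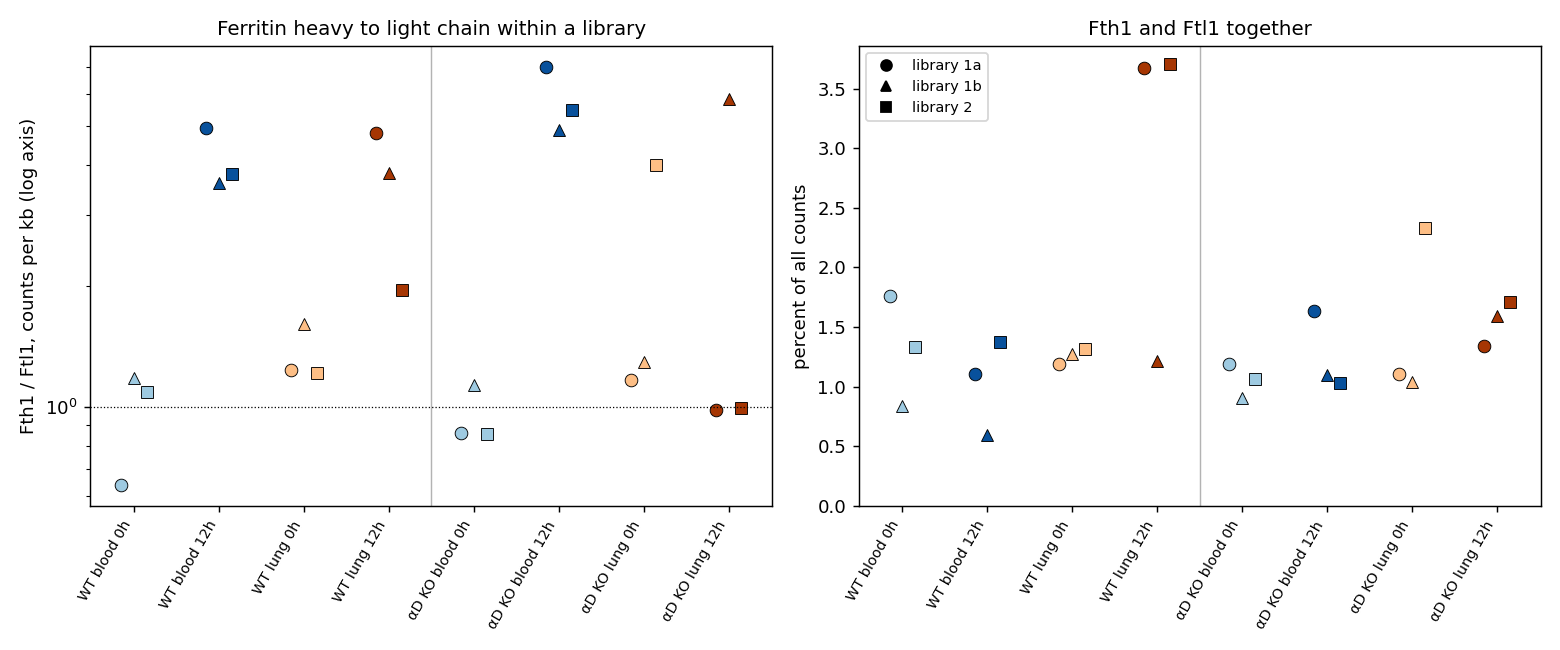
Left, ratio of Fth1 to Ftl1 counts per kb within each library, on a log axis, with the dotted line at 1; right, Fth1 and Ftl1 together as percent of all counts. The ratio at 12 hours lies at 3.60 to 4.94 in WT blood against 0.639 to 1.18 at 0h, and only libraries 1a and 2 of WT lung at 12 hours exceed 3% of counts.

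The ratio of Gclm to Gclc, also looked at after the values were seen, was 0.924, 1.83 and 1.38 in WT blood at 0h and 5.29, 5.89 and 5.31 at 12 hours, a 4.14-fold difference without overlap (exact permutation p = 0.1). In αD KO blood it was 1.59, 1.90 and 2.33 at 0h and 1.48, 25.3 and 2.43 at 12 hours, which overlapped (exact permutation p = 0.6). In WT lung it was 1.18, 0.949 and 1.01 at 0h and 0.880, 12.6 and 0.844 at 12 hours. Library 1b stood apart there, and the other pair lay below every baseline library (exact permutation p = 1.0 over all 3).

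In lung labelled αD KO, 7 of the 10 members (Hmox1, Srxn1, Txnrd1, Prdx5, Slc7a11, Gclc and Fth1) had their highest level in the 0h library that lay against its time label. How often that library was highest over all genes was not counted. Its TMM factor of 0.773, against 0.844 to 1.49 in the other αD KO lung libraries, raises its levels relative to theirs. The highest level was in library 2 of 12 hours for Ftl1 (12340 CPM), in library 1b of 12 hours for Gclm (63.4 CPM) and in library 1a of 0h for Prdx1 (27.4 CPM). The 0h library 2, at position 1.03, had 332 CPM of Hmox1, 49.1 CPM of Srxn1, 152.5 CPM of Txnrd1 and 21720 CPM of Fth1. The other baseline libraries had 62.9 and 58.8 CPM of Hmox1, 7.18 and 5.73 CPM of Srxn1, 29.8 and 32.9 CPM of Txnrd1 and 4091 and 3173 CPM of Fth1. At 12 hours, libraries 1a and 2 had 104 and 161 CPM of Hmox1 and 5.68 and 12.9 CPM of Srxn1, library 1a within the range of WT lung at 0h and library 2 above it. Slc7a11 was at 831, 438 and 1022 CPM at 12 hours, in the same order of libraries. The groups of 0h and 12 hours overlapped for all of these. The fitted changes lay between -0.95 ± 0.81 (Srxn1) and 1.03 ± 0.55 (Gclm), with an adjusted p of 1.0 for each member. Without the 3 libraries against their label, a single 12-hour library (1b) was left against 2 at 0h and was taken to vary as those did. The fitted changes were then 1.86 ± 0.65 for Txnrd1 (adjusted p = 0.169) and 1.76 ± 0.64 for Gclm (adjusted p = 0.215), and no member was called, where 1.41% of genes were.

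**Figure D4:**
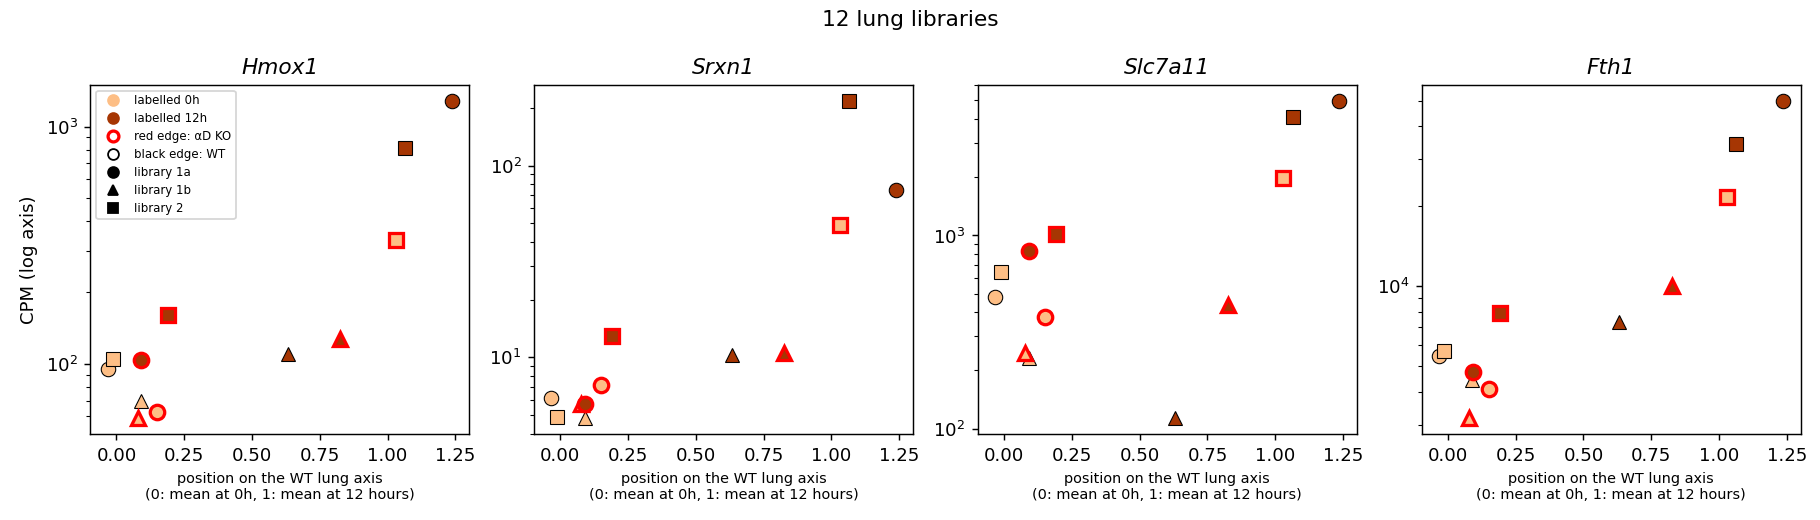
Level of Hmox1, Srxn1, Slc7a11 and Fth1 (CPM, log axis) in the 12 lung libraries against the position of each library between WT lung at 0h (0) and at 12 hours (1) over 1335 other genes. Library 2 labelled αD KO at 0h, has a position of 1.03, close to WT library 2 of 12 hours, and the αD KO libraries 1a and 2 of 12 hours lie at 0.092 and 0.191, beside the baseline.

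Lung and blood neutrophils of WT mice were compared next. At 0h no member was called, edgeR calling 0% of genes and DESeq2 0.294%; the unadjusted p was below 0.05 for 2.54% of genes and for no member. Fitted differences of lung over blood at 0h ran from -0.37 ± 0.52 (Ftl1) to 0.27 ± 0.36 (Fth1). At 12 hours edgeR called no member (0.0442% of genes), the unadjusted p was below 0.05 for 6 members (18.1% of genes), and DESeq2 called 4 (8.28% of genes): Slc7a11, Srxn1, Ftl1 and Gclc. Slc7a11 was fitted 3.25 ± 1.00 higher in lung on the log2 scale (edgeR adjusted p = 0.175), Srxn1 2.84 ± 0.92 (0.189), Gclc 2.44 ± 0.65 (0.147) and Ftl1 2.07 ± 0.68 (0.190, all adjusted p). Libraries 1a and 2 of lung lay above all blood libraries for these 4 genes and library 1b did not. Without that library 7 members were called, all higher in lung, where 20.2% of genes were called, led by Slc7a11 (3.80 ± 0.38, adjusted p = 0.00194), Srxn1 (3.34 ± 0.68, 0.0140) and Gclc (2.90 ± 0.34, 0.00287). At 12 hours, lung epithelial and endothelial markers summed to 36.1, 318 and 296 CPM in WT lung (libraries 1a, 1b and 2). They summed to 1.69 to 3.31 CPM in WT blood, and their part in these differences was not tested.

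Whether the change after CLP differed between the tissues of WT mice was tested as an interaction. No member was called by edgeR (0% of genes) or by DESeq2 (0.438%), and the unadjusted p was below 0.05 for 3 members (5.49% of genes). The largest differences, lung change minus blood change, were 3.14 ± 1.27 for Srxn1, 3.03 ± 1.30 for Slc7a11, 2.53 ± 0.93 for Gclc and 2.36 ± 1.11 for Ftl1, each with an adjusted p of 0.876, while the median over all genes was 0.56 (-0.27 to 1.26 with 1 library left out, -0.17 without library 1b of WT lung at 12 hours). On libraries 1a and 2 alone, a setting chosen after seeing the data, 5 members were called (7.41% of genes): Slc7a11 (3.42 ± 0.57, adjusted p = 0.0136), Gclc, Ftl1, Fth1 and Srxn1.

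The genotype comparison asked how neutrophils labelled αD KO differed from WT ones. Itgad goes against these labels in all 4 pairs, whether they were exchanged was not tested, and an exchange would turn the sign of each difference below. In blood at 0h no member was called (0.0115% of genes by edgeR, 0.709% and no member at an unadjusted p below 0.05, 0.0346% by DESeq2), and the fitted differences, αD KO minus WT, ran from -0.70 ± 0.38 (Slc7a11) to 1.42 ± 0.81 (Prdx1). The Prdx1 difference was -0.14 ± 0.45 without αD KO library 2, which had 115 CPM of it and the high marker sums given above. In blood at 12 hours none was called (0% by edgeR, 4.01% and no member at an unadjusted p below 0.05, 0.127% by DESeq2), and the differences ran from -0.98 ± 0.44 (Prdx1) to 0.36 ± 0.43 (Fth1). In lung at 0h none was called (0% by edgeR, 0.0329% by DESeq2), and Srxn1 was the member with an unadjusted p below 0.05 (1.86% of genes), fitted 1.84 ± 0.75 higher (edgeR adjusted p = 0.983). Without the αD KO library that lay against its label, that difference was 0.35 ± 0.38.

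In lung at 12 hours all 10 fitted differences lay below 0, from -3.06 ± 0.89 (Srxn1) and -2.20 ± 0.73 (Hmox1) to -0.80 ± 0.79 (Ftl1), with a median of -1.44 against 0.13 over all genes. No member was called by edgeR (0% of genes, smallest adjusted p = 0.598), and the unadjusted p was below 0.05 for 5 (8.29% of genes). DESeq2 called Srxn1 (-3.17, adjusted p = 0.0175) and Hmox1 (-2.30, adjusted p = 0.0493), where it called 1.15% of genes. The Srxn1 libraries, 74.3, 10.3 and 218 CPM in WT and 5.68, 10.5 and 12.9 CPM in αD KO, overlapped through library 1b of WT, as did those of Hmox1. Without that library both were called by edgeR (1.11% of genes), Srxn1 with -3.60 ± 0.56 (adjusted p = 0.0399) and Hmox1 with -2.71 ± 0.44 (adjusted p = 0.0420). On libraries 1a and 2 alone 8 members were called, all lower in αD KO, where 30.1% of genes were called; both αD KO libraries of that comparison lay against their time label. Without those libraries, and so with a single αD KO library taken to vary like the WT ones, none was called, and Srxn1 was fitted at -2.89 ± 1.70.

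The genotype by time interaction gave no member in blood (0% of genes by edgeR, 0.00505% by DESeq2), the unadjusted p being below 0.05 for Prdx1 (1.17% of genes), whose estimate of -2.38 ± 1.06 was -0.75 ± 0.86 without that 0h library 2 of αD KO blood. In lung edgeR called none (0% of genes), the unadjusted p was below 0.05 for 6 members (10.5% of genes), and DESeq2 called Srxn1 (-5.03, adjusted p = 0.0143, where 1.51% of genes were called). The edgeR estimate for Srxn1 was -5.06 ± 1.31 (adjusted p = 0.410), with all 3 αD KO lung libraries that lay against their label in it. On libraries 1a and 2 alone 5 members were called (13.2% of genes): Srxn1, Txnrd1, Hmox1, Prdx5 and Fth1. Of the 4 αD KO lung libraries in that fit, 3 lay against their time label. Without those 3, and so with a single αD KO lung library at 12 hours, no member and 0% of genes were called, and Srxn1 was fitted at -3.25 ± 1.47 (adjusted p = 1.0).

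Other genes of the same pathways were described from 5 lists of 66 genes. Of those tested, 7 rose and 3 fell of 64 in WT lung, where 5.24% of all genes were called higher and 3.78% lower; 9 rose and 7 fell of 62 in WT blood (7.75% higher and 5.75% lower); and 6 rose and 5 fell of 62 in αD KO blood (3.75% higher and 4.99% lower). These shares stand behind the counts of each list below. Among the regulators of NRF2, Mafg, a small MAF partner, rose in WT blood (1.63 ± 0.30, adjusted p = 0.0147), the single call among 7 genes there. In WT lung edgeR called none of the 7, with an unadjusted p below 0.05 for 4 (26.6% of all genes), while DESeq2 called Sqstm1 (adjusted p = 0.000298), Mafg (0.00219) and Maff (0.0120), 3 of the 7. In αD KO blood neither tool called any, and edgeR's unadjusted p was below 0.05 for 2 (27.8% of all genes). Nfe2l2 itself was at 316 ± 86.2 CPM in WT lung at 0h and at 809 ± 560 CPM at 12 hours (SD, n = 3), with library 1b at 172 CPM and a fitted change of 1.19 ± 0.57 (adjusted p = 0.229). Without the TMM factors these Nfe2l2 means were 349 CPM at 0h and 502 CPM at 12 hours. Sqstm1, whose protein p62 binds KEAP1, had a fitted change of 3.05 ± 0.82 in WT lung (adjusted p = 0.0545). The median of the 7 regulators was 1.35 in WT lung and 0.21 in WT blood.

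Of the 16 other glutathione genes, 3 rose and 1 fell in WT lung, 2 rose and 3 fell in WT blood, and 2 rose and 3 fell in αD KO blood. Ggt1, which splits glutathione outside the cell, went from 1.17 to 2.48 CPM to 115 to 455 CPM in WT lung, a rise of 7.38 ± 0.90 (adjusted p = 0.00540), and rose by 6.99 ± 0.50 in WT blood and 6.53 ± 0.90 in αD KO blood. Chac1, which breaks glutathione down in the cytosol, fell in the same comparisons, with log2 fold changes of -4.40 ± 0.40, -4.94 ± 0.47 and -4.55 ± 0.78. Glutaredoxin Glrx rose in all 3 (1.67 ± 0.37, 1.56 ± 0.42 and 1.53 ± 0.30). Abcc1, an exporter of glutathione conjugates, rose in WT lung (3.99 ± 0.86, adjusted p = 0.0294), and it too is among the genes that the study printed for lung at 12 hours. Gss, the last enzyme of glutathione synthesis, fell in WT blood (-2.02 ± 0.40) and αD KO blood (-2.49 ± 0.46), as did the transferase Gstp1 (-1.94 ± 0.34 and -1.81 ± 0.42).

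Of the 12 other thioredoxin, peroxiredoxin and peroxide genes, Sod2, the mitochondrial superoxide dismutase, was the single one that rose, by 4.95 ± 0.89 in WT lung, 3.97 ± 0.84 in WT blood and 3.79 ± 0.38 in αD KO blood. Txnrd2, the mitochondrial thioredoxin reductase, fell in WT blood (-2.02 ± 0.54, adjusted p = 0.0462), where Txnrd1 rose, and Txnip, which binds and blocks thioredoxin, fell there too (-1.59 ± 0.33, adjusted p = 0.0213). Of the genes for NADPH supply and quinone reduction, Nqo1, a textbook NRF2 target, rose in WT lung (4.54 ± 0.85, adjusted p = 0.0205) and in WT blood (3.50 ± 0.46, adjusted p = 0.00467). It was at 24.2, 25.3 and 138 CPM in WT lung at 12 hours and at 0.809 to 3.66 CPM at 0h, so library 1b was not apart there. G6pdx, which opens the pentose phosphate pathway, rose in WT blood (2.78 ± 0.50) and αD KO blood (1.64 ± 0.35), Tkt rose (1.71 ± 0.44) and Taldo1 fell (-1.64 ± 0.42) in WT blood, and Osgin1 fell in αD KO blood (-1.64 ± 0.42).

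Of the 22 other heme and iron genes, 19 or 20 passed the filter in these comparisons. Slc40a1, ferroportin, the exporter of iron, was at 1016 to 2062 CPM in WT lung at 0h and at 141, 383 and 182 CPM at 12 hours, and it fell there (-2.61 ± 0.62, adjusted p = 0.0394), in WT blood (-2.65 ± 0.48) and in αD KO blood (-2.67 ± 0.34). Lcn2, whose protein binds bacterial siderophores, rose by 5.66 ± 0.63, 5.29 ± 0.51 and 3.51 ± 0.50, and Alas1, the first enzyme of heme synthesis, rose by 1.78 ± 0.39, 2.11 ± 0.49 and 2.16 ± 0.33. Fech, the last enzyme of heme synthesis, fell in WT lung (-1.11 ± 0.28, adjusted p = 0.0484). Erythroid markers summed to 89.4 to 961 CPM in WT lung at 0h and to 185 to 1282 CPM at 12 hours, ranges that overlapped. The 14 monocyte and macrophage markers summed to 685 to 1094 CPM at 0h and to 566 to 915 CPM at 12 hours in WT lung, which overlapped, but single markers moved apart without overlap: Csf1r (444 to 717 against 151 to 233 CPM), Adgre1 (82.5 to 218 against 34.8 to 62.6 CPM) and Siglecf (51.1 to 112 against 1.97 to 14.5 CPM) were lower at 12 hours, and Ly6c2 (69.3 to 99.2 against 304 to 684 CPM) was higher. No gene of the 5 lists was called by edgeR in αD KO lung, in the genotype comparisons at 12 hours or between WT lung and blood at 12 hours. In αD KO lung the unadjusted p was below 0.05 for 0 of 65 genes tested (0.401% of all genes), and DESeq2 called 0. Between genotypes at 12 hours it was below 0.05 for 5 of 62 genes in blood (4.01% of all genes), where DESeq2 called 0, and for 8 of 64 in lung (8.29%), where DESeq2 called 5 (1.15% of all genes). Between WT tissues at 12 hours it was below 0.05 for 19 of 62 (18.1%), and DESeq2 called 12 (8.28%).

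**Figure D5:**
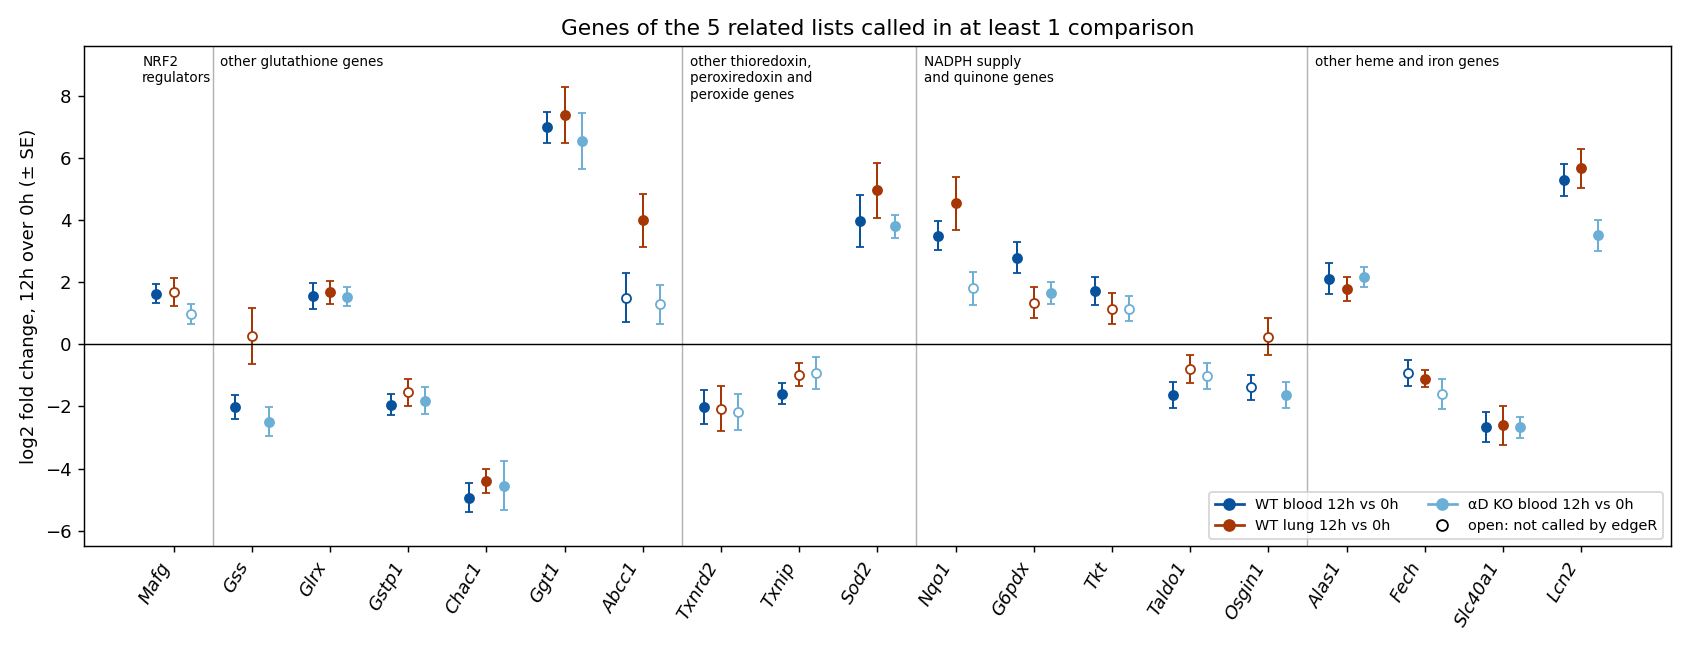
Fitted log2 fold change from 0h to 12 hours (edgeR, ± SE derived from the F statistic) of the genes of the 5 lists that were called in at least 1 of 3 comparisons. Filled points were called. Ggt1, Sod2, Lcn2 and Alas1 lie above 0 and Chac1 and Slc40a1 below 0 in all 3, with Ggt1 at 6.53 to 7.38.

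Reads of some members can be shared with copies or overlapping genes. Ftl1 has 6 annotated copies or overlapping stretches at 95% identity or more, which together held 2.30% as many counts as Ftl1, and Prdx1 has 2 with 2.12%; no such copy was found for Fth1. A stretch of 373 bases of the longest Slc7a11 transcript is 96.0% identical to Tuba1a, and similar stretches at 95% or more stand in 6 other genes. These 7 genes, mostly Tuba1a (97138 counts) and Tuba1c (57668 counts), held 51.4% as many counts as Slc7a11. Gm37498 overlaps Slc7a11 on the same strand and held 2.44% as many. On the opposite strand, Gm17494 overlaps Gclm and held 4.88% as many counts, and Trmt112 overlaps Prdx5 with 2.97%. Eid3 overlaps Txnrd1 on the same strand with 1.08%. How the counting treated strand is not given in the sources used here, so the level of these members carries that uncertainty.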

How the data were processed

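RNA of sorted neutrophils (WT or αD KO, blood or lung, 0h or 12 hours) was amplified with SMART-Seq v4 and made into Nextera XT libraries by the authors. Reads were trimmed with Trimmomatic 0.36 and mapped with STAR 2.5.2b (GRCm38 and mm10 are named in the submitters' processing notes), and unique reads in exons were counted. The deposited values are raw counts per gene in 24 files, not normalized; the counter and its strand setting are not given in the sources used here. Symbols and coordinates were matched to GENCODE M21 (48970 genes with a symbol, 44734 with equal coordinates).

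Levels are CPM with TMM factors over all 24 libraries (factors 0.557 to 1.92). DEGs were called with edgeR 4.0.16 in R 4.3.3 (TMM, filterByExpr, quasi-likelihood F test, two-sided, only the libraries of the compared groups) at a Benjamini-Hochberg adjusted p below 0.05 over all genes tested and an absolute log2 fold change above 1, after the study's thresholds. The script was tested on simulated data. DESeq2 1.42.0, the study's tool, was an alternative, besides RLE factors, other filters on low counts (none, or 10 counts in every library), all 8 groups in the fit, summed files of sample 1, each library left out, a block for the library number, and calls on the adjusted p without the fold limit. The SE given with an edgeR log2 fold change is the absolute change divided by the square root of its F statistic. It is not a separately fitted error. Libraries 1a and 2 alone, and αD KO lung without the libraries against their label, were chosen after seeing the data. The members and the lists were chosen with earlier results of these data known, so no p adjusted over the list alone is given. Named genes are the 10 members and, per list, comparison and direction, up to 3 called genes with the largest change; Nfe2l2 and Sqstm1 were added after their values were seen.

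Libraries of the same number deviated together in WT blood between 0h and 12 hours (correlations across genes of the deviations from the group means, on log2 CPM with 0.5 added, 0.429, 0.571 and 0.248 for numbers 1a, 1b and 2), in αD KO lung over time, between genotypes in blood at 0h, and between WT tissues at both times. The labels state no pairing. Positions between 0h and 12 hours are projections on the mean WT lung difference, without the members. Ratios and permutation tests were made in Python 3.11.15 with scipy 1.17.1.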

Additional observations from a re-analysis of the deposited data

How the results depend on the processing

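No fitted change of a called member turned its direction under any alternative run: 86 such values kept their side of the threshold and 68 did not pass it. The counts of members called moved as follows, with the share of all genes called in that setting in parentheses. The cause of these moves was not tested. In WT blood (3 in the report) no filter on low counts gave 1 (2.25%), at least 10 counts in every library 5 (24.9%, Gclc among them lower), DESeq2 5 (21.4%), all 8 groups in the fit 0 (4.12%), the summed files 5 (15.9%) and libraries 1a and 2 alone 7 (23.1%, Gclc and Ftl1 lower). In WT lung (5) DESeq2 gave 8 (18.9%), all 8 groups 3 (1.65%) and libraries 1a and 2 alone 10 (37.2%). In αD KO blood (3) all 8 groups gave 0 (0.236%) and libraries 1a and 2 alone 5 (11%, Gclm and Ftl1 lower). In lung at 12 hours between genotypes (0) no filter gave 1 (0.489%), DESeq2 2 (1.15%) and libraries 1a and 2 alone 8 (30.1%). Between WT lung and blood at 12 hours (0) no filter gave 3 (1.59%), DESeq2 4 (8.28%), the summed files 2 (4.47%) and libraries 1a and 2 alone 7 (28.2%). For the WT tissue by time term (0) libraries 1a and 2 alone gave 5 (7.41%), and for genotype by time in lung (0) DESeq2 gave 1 (1.51%) and libraries 1a and 2 alone 5 (13.2%). Leaving out 1 library gave 0 to 4 members in WT blood (0.00999% to 18.4% of genes), 0 to 9 in WT lung (0% to 25.3%), 0 to 4 in αD KO blood (0.456% to 8.74%), 0 to 2 between genotypes in lung at 12 hours (0% to 1.11%) and 0 to 7 between WT tissues at 12 hours (0% to 20.2%). Called lower among these were Gclc and Ftl1 in WT blood without library 1b of 0h and Gclm in αD KO blood without library 1b of 12 hours. The other counts stayed within 1.5 times; in αD KO blood Gclc was lower among the 4 called by DESeq2 and among the 4 with at least 10 counts in every library. The median log2 difference over all genes in the tissue by time term, 0.56 in the report, was 0.73 with RLE factors or DESeq2, 0.06 with at least 10 counts in every library, 0.03 on libraries 1a and 2 alone, 0.25 with the summed files, 0.39 with the block and -0.27 to 1.26 with 1 library left out.

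The library number as a replicate block gave 5 members in WT blood (18.4%) and 3 in WT lung (6.01%), where the correlation for number 1a was 0.097 and the numbers do not pair the libraries; it moved no other count of members by more than 1.5 times. Without the TMM factors, 71 mean levels of a member in a group stayed within 1 SD and 9 moved further. In WT lung at 12 hours the mean went from 735 to 445 CPM for Hmox1 and from 3066 to 1797 CPM for Slc7a11. For Fth1 it went from 30470 to 19030 CPM there, and all 3 of these stayed within the SD. Depth limits Srxn1 and Gclc most, with as few as 22 and 38 counts in a library.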
